A study of Mus musculus with 4 samples.

Results

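The genes described here are those of the muscle nicotinic acetylcholine receptor and of 3 proteins of the neuromuscular junction. They were taken by gene symbol as Chrna1, Chrna2, Chrnb1, Chrnd, Chrne, Chrng, Musk, Rapsn and Ncam1. All 9 had a probe set on the array, 16 probe sets in all out of 22690, and the 9 stand among 12393 genes with a probe set of 1 gene symbol. The set was selected on measured values of the comparison between the transgenic and the control muscle, in which Chrna2 had one of the larger differences, so the members' values in that comparison are given as a description with no p-value.

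Total RNA came from gastrocnemius, a large calf muscle, of mice with the nuclear receptor PPARα overexpressed in muscle (MCK-PPARa, 2 arrays) and of non-transgenic littermates (NTG, 2 arrays). The name MCK stands for the muscle creatine kinase promoter, which drives transgenes in differentiated striated muscle. The series gives 2 mice of each genotype, and the sources used here do not give their age, sex, strain or transgenic line. The groups share no other allele or agent that the labels name, and a p-value covers only the spread among these samples, since the labels name no animal for an array.

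At the vertebrate nerve-muscle synapse, acetylcholine opens a channel of several subunits in the muscle membrane. The adult channel is built of α1, β1, δ and ε, and the fetal channel holds γ in place of ε. Agrin from the nerve acts through Lrp4 on the receptor kinase MuSK, and rapsyn anchors the receptors under the nerve ending. Muscle that has lost its nerve makes receptor subunits, γ included, and the cell adhesion molecule NCAM along the whole fibre. The α2 subunit encoded by Chrna2 belongs to the neuronal type of nicotinic receptor and is not part of the classical muscle channel.

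The signal of the Ppara probe set, which checks the labels, was 633 and 2674 in the NTG and 7969 and 15226 in the MCK-PPARa arrays. All 11 skeletal muscle fibre markers on a fixed list, such as muscle creatine kinase (Ckm) and skeletal actin (Acta1), had signals of at least 65374 on every array. Differences below are MCK-PPARa minus NTG of log2(signal + 64.2). The added 64.2, called the offset, equals 10% of the median signal and makes changes of dim probe sets look smaller. Standard errors (SE, n = 2 arrays per group) of members come from limma fitted to all 20380 probe sets with 1 gene symbol. Signals of different probe sets are not compared with one another, and there were no detection calls to show which were above background.

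Chrna2 and Chrna1, the genes of 2 ligand-binding α subunits, were the members that differed most between the groups, and both were higher in MCK-PPARa muscle. Chrna2 went from a dim signal to a clear one, and Chrna1 was several times brighter. Ncam1 and 1 of the 3 Chrng probe sets were higher by smaller amounts. The genes of the other adult subunits, Chrnb1, Chrnd and Chrne, and the kinase gene Musk had groups that overlapped, and Rapsn was slightly lower.

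For Chrna2 (1425409_at) the signal was 79.6 and 88.0 on the first and the second NTG array and 1595 and 1562 on the first and the second MCK-PPARa array. The NTG arrays were close to the offset and the MCK-PPARa arrays were close to each other, with no overlap. The mean signal was 83.8 ± 5.94 (SD, n = 2) in NTG and 1578 ± 23.1 (SD, n = 2) in MCK-PPARa muscle, a ratio of 18.8. The difference was 3.47 ± 0.49 (SE) on the log2 scale, and only 2 of the 20380 probe sets had a larger one. The replicate 1 arrays differed by 3.53 and the replicate 2 arrays by 3.42. Its size depends on the offset, from 2.23 with 50% of the median signal to 4.14 with 1%. By its mean over the 4 arrays the probe set stood at the 40.3rd percentile, just above the filter on dim probe sets at the 40th. It stood at the 12.3rd percentile in NTG alone and at the 73.9th in MCK-PPARa alone, so that it passed the filter only through the group where it was high.

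The α1 gene Chrna1, which encodes the subunit shared by the fetal and adult muscle channel, was bright in both groups. Its probe set (1418852_at) read 1965 and 3784 in the NTG and 12457 and 12678 in the MCK-PPARa arrays. Both transgenic arrays lay above both controls and differed little from each other, while the controls were apart by 0.92 on the log2 scale. The ratio of the mean signals was 4.37 and the difference 2.18 ± 0.35 (SE), a size that 35 of the 20380 probe sets exceeded. The replicate 1 arrays differed by 2.63 and the replicate 2 arrays by 1.73. Without NTG replicate 1 it was 1.71 and without NTG replicate 2 it was 2.64.

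**Figure D1:**
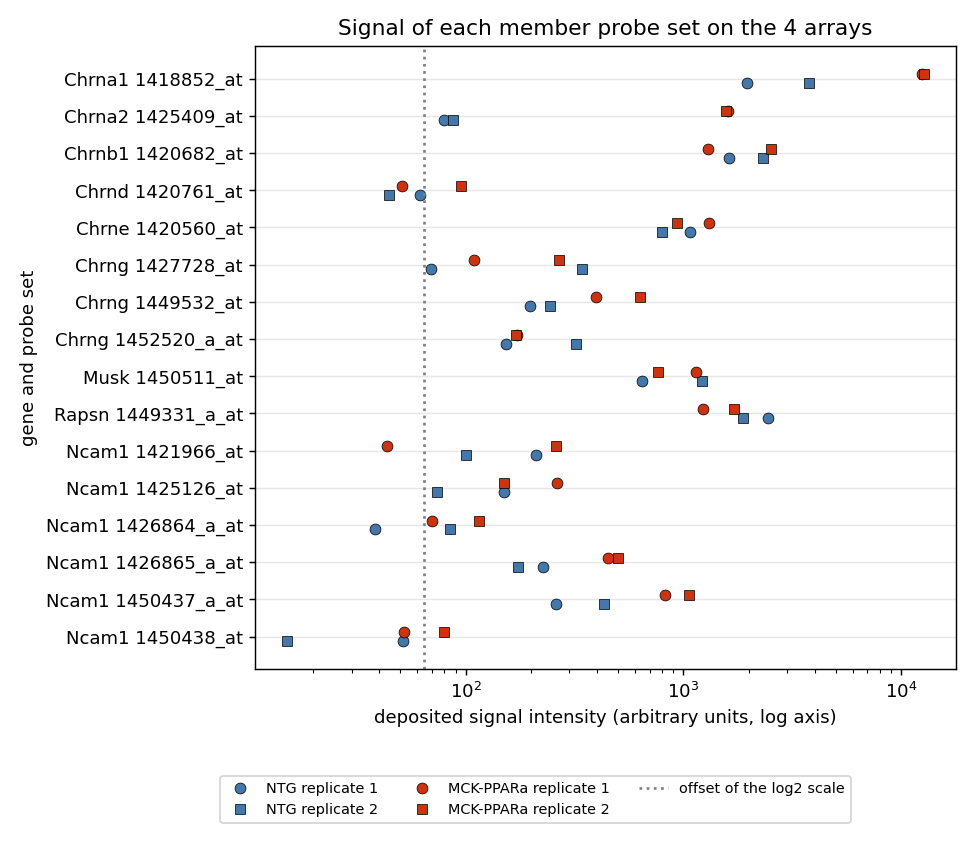
Deposited signal (arbitrary units, log axis) of each of the 16 member probe sets on the 4 arrays. Circles are replicate 1 and squares replicate 2, blue for NTG and red for MCK-PPARa, and the dotted line is the offset of 64.2. The red points of Chrna2 and Chrna1 stand to the right of the blue ones, and for Chrnb1, Chrnd, Chrne and Musk the colours overlap.

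The remaining subunits of the adult channel did not follow Chrna1. Chrnb1 (1420682_at), the β1 subunit gene, read 1626 and 2312 in the NTG and 1299 and 2511 in the MCK-PPARa arrays. The replicate 2 array was the brighter in each group, and the groups overlapped, with a difference of -0.10 ± 0.39 (SE). Chrne (1420560_at), the gene of the adult ε subunit, read 1078 and 798 in the NTG and 1315 and 939 in the MCK-PPARa arrays. The replicate 1 arrays were the brighter ones, and the difference was 0.25 ± 0.40 (SE). Chrnd (1420761_at), the δ subunit gene, was dim throughout, at 61.7 and 44.5 in the NTG and 50.9 and 95.8 in the MCK-PPARa arrays. On 3 of the 4 arrays its signal was below the offset, and the difference of 0.21 ± 0.43 (SE) is a difference between dim signals.

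Chrng, the gene of the fetal γ subunit, had 3 probe sets, all below the filter, and they disagreed. The probe set 1449532_at read 198 and 244 in the NTG and 395 and 633 in the MCK-PPARa arrays, with both transgenic arrays above both controls (1.00 ± 0.54, SE). The replicate 1 arrays differed by 0.81 and the replicate 2 arrays by 1.18. The probe set 1427728_at read 69.1 and 341 in the NTG and 110 and 269 in the MCK-PPARa arrays. Here the replicate 2 arrays were brighter in both groups and the groups overlapped (0.05 ± 0.67, SE). The probe set 1452520_a_at read 154 and 320 in the NTG and 173 and 170 in the MCK-PPARa arrays, again with overlap (-0.30 ± 0.55, SE). All 3 stood between the 20.9th and the 34.4th percentile of mean signal, so the γ subunit gene was dim by each of them.

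Promoter sequences are shown for the α1 gene, which differed, and for the γ and ε genes, which mark the fetal and the adult channel. They are the 250 bases before the transcription start in the RefSeq promoter table (build GRCm38.p6), 5′ to 3′ on the strand of the gene. Of the 9 members 5 were in that table: Chrna1, Chrnb1, Chrne, Chrng and Musk. Capitals mark E-boxes (CANNTG), the sites of myogenic factors such as MyoD and myogenin, and the N-box (CCGGAA), the site of Ets-family factors described for synapse-specific genes. Chrna1 lies at chr2:73580339-73580588 on the minus strand, Chrng at chr1:87205561-87205810 on the plus strand and Chrne at chr11:70619195-70619444 on the minus strand.
Chrna1: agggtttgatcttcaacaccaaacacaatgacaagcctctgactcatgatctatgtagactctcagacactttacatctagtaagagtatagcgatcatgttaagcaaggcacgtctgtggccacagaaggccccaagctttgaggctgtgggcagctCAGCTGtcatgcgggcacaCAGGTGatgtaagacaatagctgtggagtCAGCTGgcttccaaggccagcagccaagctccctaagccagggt
Chrng: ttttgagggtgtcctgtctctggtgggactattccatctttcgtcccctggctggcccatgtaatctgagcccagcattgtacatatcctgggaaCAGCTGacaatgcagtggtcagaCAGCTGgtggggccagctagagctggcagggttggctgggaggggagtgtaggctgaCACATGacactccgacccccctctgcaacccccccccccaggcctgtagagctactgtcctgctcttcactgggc
Chrne: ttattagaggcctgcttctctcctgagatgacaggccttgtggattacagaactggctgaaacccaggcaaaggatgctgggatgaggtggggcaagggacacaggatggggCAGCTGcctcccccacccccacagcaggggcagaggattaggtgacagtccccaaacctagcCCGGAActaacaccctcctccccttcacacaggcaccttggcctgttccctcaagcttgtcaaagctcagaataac

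The Chrna1 window held 3 E-boxes, of which 2 read CAGCTG and begin 92 and 44 bases before the start. The Chrng window also held 3, with CAGCTG beginning 155 and 132 bases before the start. The Chrne window held 1 E-box, a CAGCTG, and the only N-box of the 5 members, which begins 76 bases before the start. Chrnb1 and Musk held 3 E-boxes each, with CAGCTG in that of Musk. Both strands were searched, CAGCTG is one form of CANNTG, and the shares among 32841 promoter windows of the same length were 66.2% for CANNTG, 13.0% for CAGCTG and 12.0% for CCGGAA. A match of letters is a description and not a site in use.

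Among the proteins that gather receptors, Musk (1450511_at), the gene of the agrin-activated kinase, read 649 and 1213 in the NTG and 1145 and 764 in the MCK-PPARa arrays. The order of the replicates was opposite in the 2 groups, and the difference was 0.07 ± 0.45 (SE). Rapsn (1449331_a_at), the gene of rapsyn, read 2454 and 1882 in the NTG and 1234 and 1711 in the MCK-PPARa arrays. Both transgenic arrays were below both controls, with a log2 difference of -0.54 ± 0.34 (SE). The gap was unequal, at -0.96 for the replicate 1 arrays and -0.13 for the replicate 2 arrays.

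Ncam1, which encodes the neural cell adhesion molecule of the synapse, of satellite cells and of Schwann cells, had 6 probe sets. The brightest (1450437_a_at) read 262 and 432 in the NTG and 823 and 1063 in the MCK-PPARa arrays. Both transgenic arrays lay above both controls, with a ratio of mean signals of 2.72 and a difference of 1.31 ± 0.49 (SE). The next brightest (1426865_a_at) read 226 and 175 in the NTG and 450 and 499 in the MCK-PPARa arrays, also without overlap (1.03 ± 0.52, SE). The same order held in 2 dimmer probe sets, 1425126_at (0.63 ± 0.53, SE) and 1450438_at (0.44 ± 0.41, SE), by small margins. In 1425126_at the margin was between 149.8 in NTG replicate 1 and 150.9 in MCK-PPARa replicate 2. The other 2 overlapped, and 1421966_at gave -1.35 for the replicate 1 arrays and 0.97 for the replicate 2 arrays. Of the 6, only 1450437_a_at passed the filter, and in NTG alone it stood at the 35.5th percentile, below it.

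**Figure D2:**
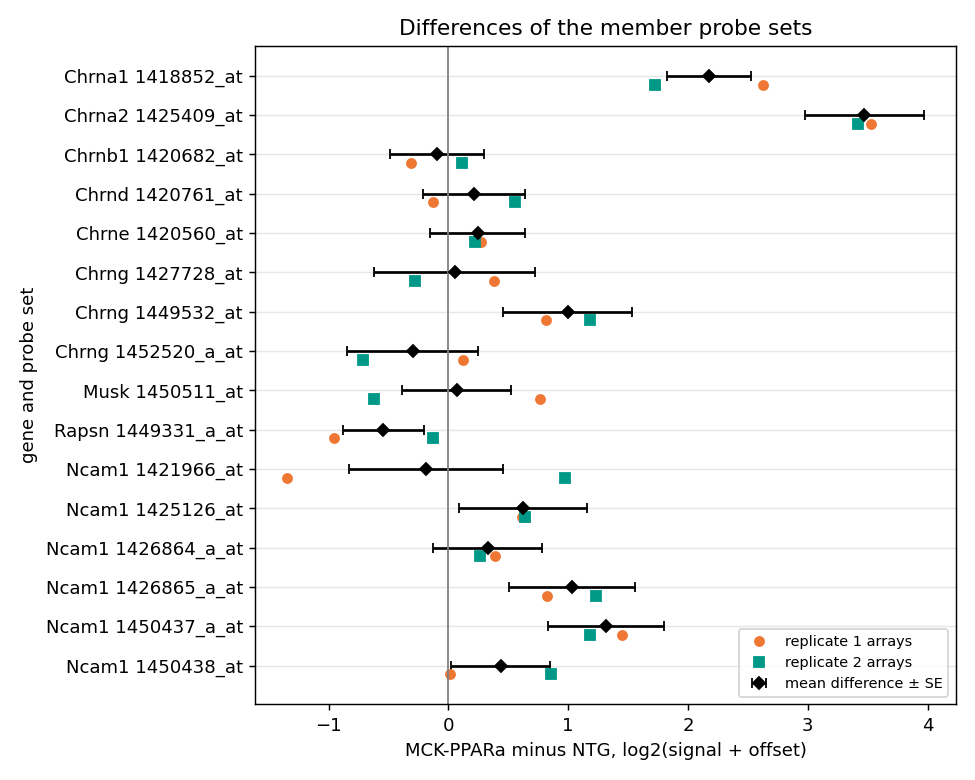
Difference between MCK-PPARa and NTG on the log2(signal + offset) scale for the 16 member probe sets. Black diamonds are the mean difference with its SE (n = 2 arrays per group), and the coloured points are the difference between the replicate 1 arrays (circles) and the replicate 2 arrays (squares). Chrna2 (3.47) and Chrna1 (2.18) stand apart to the right with both coloured points above 1.7, and 6 probe sets, those of Chrnb1, Chrnd and Musk, 2 of Chrng and 1 of Ncam1, have coloured points on both sides of 0.

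Over the 16 probe sets, 12 had a difference above 0 and 4 below, with a median of 0.29 against 0.08 for all 20380. The groups did not overlap in 8 of the 16, with the transgenic arrays higher in 7 and lower in 1. Of all 20380 probe sets 33.8% had groups that do not overlap, 20.8% higher and 13.0% lower. For the test across genes the brightest probe set past the filter stood for each gene, which left 8400 genes. Of the members 7 were among them, and Chrnd and Chrng were not. In 2 of the 7, Chrna2 and Ncam1, the NTG signal alone was below the filter. None of the 7 passed an adjusted p of 0.05 in limma with Benjamini-Hochberg adjustment, fitted to all 4 arrays with a variance trend and no replicate block, and 3 had an unadjusted p under 0.05. With the replicate number as a block 2 passed, Chrna1 and Chrna2, among 196 genes in all. Of all 8400 genes 5, or 0.0595%, passed and 5.85% had an unadjusted p under 0.05. Because the members were chosen with this comparison known, nothing is read from these counts.

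A list of 34 other genes of the junction, of its signalling, transcription factors, scaffold and synaptic cleft, had 30 on the array and 25 tested, of which 12 were above 0 and 13 below. Their median difference was -0.002, against 0.05 for all genes tested. None rose or fell at a limma adjusted p of 0.05, and 1 had an unadjusted p under 0.05. Groups did not overlap for 4 of the 25, with the transgenic arrays higher for 3 and lower for 1, against 34.2% of all genes tested. Of the 5 too dim to be tested, Colq read 290 and 348 in the NTG and 147 and 134 in the MCK-PPARa arrays. It was thus lower on both transgenic arrays, by -0.90. Erbb4 was higher on both (0.63), at 33.5 and 11.3 in the NTG and 65.7 and 71.0 in the MCK-PPARa arrays. The groups of Sntb1, Sntb2 and Col13a1 overlapped, while 33.8% of all 20380 probe sets had groups that did not.

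Among the signalling genes, the agrin co-receptor gene Lrp4 read 395 and 328 in the NTG and 577 and 817 in the MCK-PPARa arrays. Both transgenic arrays were above both controls, by 0.82 ± 0.44 (SE), which did not pass (limma adjusted p = 0.94). Crk, the gene of an adaptor that acts downstream of MuSK, differed by -0.83 ± 0.36 (SE, limma adjusted p = 0.85) and had the smallest unadjusted p of the list. Cdk5, a kinase gene, differed by 0.62 ± 0.37 (SE) and Dvl1, a Wnt pathway adaptor gene, by -0.49 ± 0.35 (SE), each with a limma adjusted p of 0.96. Of the factors that act on the N-box, Gabpa differed by 0.10 ± 0.43 (SE), Gabpb1 by 0.15 ± 0.43 (SE) and Etv5 by -0.10 ± 0.36 (SE). In the scaffold, the genes of utrophin (Utrn, 0.16 ± 0.31, SE), dystrophin (Dmd, -0.31 ± 0.36, SE), α-dystrobrevin (Dtna, 0.30 ± 0.38, SE) and dystroglycan (Dag1, -0.05 ± 0.31, SE) differed by about their SE or less. In the cleft, the laminin genes Lamb2 (-0.55 ± 0.41, SE), Lama4 (0.35 ± 0.31, SE) and Lama5 (0.06 ± 0.39, SE) and nidogen 2 (Nid2, -0.63 ± 0.48, SE) did not pass either.

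**Figure D3:**
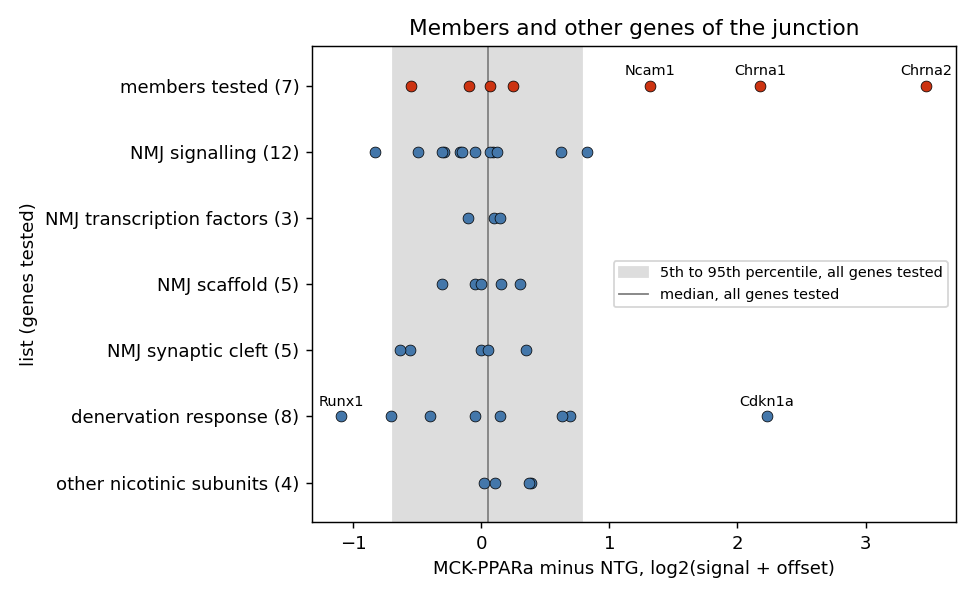
Difference between MCK-PPARa and NTG on the log2(signal + offset) scale for the 7 members tested (red) and for the tested genes of 6 lists (blue), 1 point per gene. The grey band runs from the 5th to the 95th percentile of all 8400 genes tested (-0.69 to 0.79), and genes beyond 1 in either direction are named. Chrna2, Chrna1 and Ncam1 lie to the right of the band, and most list genes lie within it.

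A further list held other genes known to change when muscle loses its nerve, as Chrna1, Chrng and Ncam1 do. Of 17 on the list, 14 were on the array and 8 were tested, with 4 above 0, 4 below and a median of 0.05. The direction in which each gene changes on loss of the nerve was not used, so these counts and the median do not measure that response. None passed in limma with all 4 arrays and no replicate block, and 1 had an unadjusted p under 0.05. That gene was Cdkn1a, which encodes the cell cycle inhibitor p21 and read 1257 and 2785 in the NTG and 7316 and 11128 in the MCK-PPARa arrays (2.23 ± 0.42, SE, limma adjusted p = 0.18). Both transgenic arrays were above both controls. With the replicate number as a block its limma adjusted p was 0.0017. Under other scalings, offsets and filters it lay between 0.13 and 0.38. With any 1 array left out the difference of Cdkn1a lay between 1.67 and 2.78.

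Myogenin (Myog), the myogenic factor that acts on E-boxes of receptor subunit genes, read 1219 and 1169 in the NTG and 2163 and 1793 in the MCK-PPARa arrays. The groups did not overlap, with a difference of 0.69 ± 0.31 (SE, limma adjusted p = 0.87). The perinatal myosin gene Myh8 differed by -0.70 ± 0.46 (SE, limma adjusted p = 0.96). Myh8 read 637 and 613 in the NTG and 284 and 450 in the MCK-PPARa arrays, so that both transgenic arrays were below both controls. The same order held for Ankrd1 (-0.40 ± 0.42, SE, limma adjusted p = 0.97). Of the 8 tested, groups were apart with the transgenic arrays higher for 2 and lower for 2, against 20.3% and 13.8% of all genes tested. The transcription factor gene Runx1 differed by -1.09 ± 0.77 (SE, limma adjusted p = 0.96), a mean carried by MCK-PPARa replicate 1 at 87.7 against 595 to 802 on the other 3 arrays. Without MCK-PPARa replicate 1 its difference was 0.13 and without MCK-PPARa replicate 2 it was -2.31, so that its sign depended on 1 array. Of the 6 listed genes too dim to be tested, Hdac9, Myh3 and Kcnn3 had groups that overlapped. In the other 3 both transgenic arrays were above both controls, against 20.8% of all 20380 probe sets. The differences were 1.24 for Dach2, 1.09 for Gadd45a and 1.60 for Gdf5. Those of the replicate 1 and replicate 2 arrays were uneven for Gadd45a (2.06 and 0.12) and Gdf5 (2.64 and 0.57). For Dach2 they were 1.06 and 1.43. Dach2 read 176 and 277 in the NTG and 436 and 851 in the MCK-PPARa arrays.

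Other nicotinic subunit genes were compared with Chrna2, since they encode its known partners and relatives in neurons. Of 10 on the list, 8 were on the array and 4 were tested, and none passed in limma at either an adjusted or an unadjusted p of 0.05. The 4 were Chrnb2 (0.39 ± 0.41, SE), Chrnb3 (0.37 ± 0.51, SE), Chrna4 (0.11 ± 0.42, SE) and Chrna3 (0.02 ± 0.57, SE), with limma adjusted p from 0.97 to 0.998. The β2 subunit gene Chrnb2, which encodes a partner of α2 in neuronal receptors, read 673 and 432 in the NTG and 705 and 754 in the MCK-PPARa arrays. Its groups did not overlap, but the replicate 1 arrays differed by only 0.06.

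The genes next to each member in the order of the RefSeq gene table (assembly GRCm38.p6) were compared as well, up to 2 with a probe set on each side. Chrna2 lies directly between Ephx2, the gene of soluble epoxide hydrolase, and Ptk2b, the gene of a focal adhesion kinase, with no protein-coding gene between. Ephx2 (1448499_a_at) read 2333 and 1635 in the NTG and 18547 and 9357 in the MCK-PPARa arrays, a difference of 2.71 ± 0.39 (SE, limma adjusted p = 0.073, and 0.00063 with the replicate block). Both transgenic arrays lay well above both controls, and with any 1 array left out the difference lay between 2.2 and 3.2. Under other scalings, offsets and filters the limma adjusted p of Ephx2 lay between 0.052 and 0.18. Ptk2b (1434653_at) was too dim to be tested and read 18.7 and 34.6 in the NTG and 244 and 221 in the MCK-PPARa arrays. It thus had the same order of groups as Chrna2, at 1.71 ± 0.46 (SE) in the fit to every probe set (limma adjusted p = 0.49).

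The next genes out showed no such gap. Adam2, beyond Ephx2, was dim at 283 and 381 in the NTG and 234 and 209 in the MCK-PPARa arrays, so that the transgenic arrays were the lower ones. Trim35, beyond Ptk2b, read 4561 and 8317 in the NTG and 5788 and 6850 in the MCK-PPARa arrays (0.03 ± 0.36, SE, limma adjusted p = 0.997). Over all members there were 32 such neighbour genes that are not members, of which 24 were tested and none passed in limma, with 2 at an unadjusted p under 0.05. Groups were apart with the transgenic arrays higher for 3 of the 24 and lower for 4, against 20.3% and 13.8% of all genes tested. Of the 24 only Ephx2 differed by 1 or more on the log2 scale in either direction, against 4.5% of all genes tested. Among the untested, dim neighbours Gpr155, parted from Chrna1 by 1 protein-coding gene, went the opposite way from Ptk2b and from Chrna1 itself. It read 501 and 595 in the NTG and 109 and 171 in the MCK-PPARa arrays (-1.60 ± 0.53, SE, limma adjusted p = 0.71 in the fit to every probe set).

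**Figure D4:**
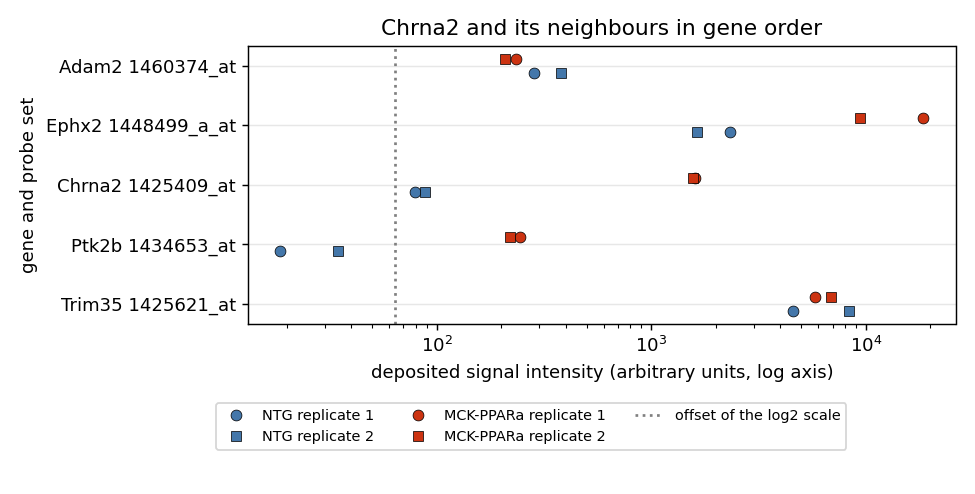
Deposited signal (arbitrary units, log axis) of Chrna2 and of the 2 nearest genes with a probe set on each side, from top to bottom in their order along the chromosome. Circles are replicate 1 and squares replicate 2, blue for NTG and red for MCK-PPARa, and the dotted line is the offset of 64.2. Ephx2, Chrna2 and Ptk2b have the red points to the right of the blue ones, Adam2 has them to the left, and those of Trim35 lie between the blue ones.

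The genes whose pattern over the 4 arrays was most like that of Chrna2 were found by the root mean square distance between log2 values centred on each gene's mean. The nearest of the 8399 other genes tested was Mtarc1 at 0.25, followed by Angptl4 at 0.27, Plin5 at 0.36, Cidea at 0.50 and Alad at 0.54. Mtarc1, a mitochondrial reductase gene, read 579 and 478 in the NTG and 4880 and 4721 in the MCK-PPARa arrays. The secreted lipase inhibitor gene Angptl4 read 139 and 169 in the NTG and 2373 and 1506 in the MCK-PPARa arrays. With 4 arrays this distance mostly ranks genes by the size of the difference between the groups. No receptor or junction gene of the lists was among the 5. The largest tested difference above 0 in those lists was 0.82 (Lrp4), so their absence adds nothing to the differences given above.

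Markers of other cells that could carry these transcripts are given beside the members, for in bulk tissue fewer cells of a type and less RNA per cell cannot be told apart. Of 12 nerve and Schwann cell markers 8 were on the array, with summed signals of 17589 and 12931 in the NTG and 16073 and 15987 in the MCK-PPARa arrays, which overlap. Among them the Schwann cell factor gene Sox10 read 1131 and 1431 in the NTG and 1391 and 1639 in the MCK-PPARa arrays, and none of the 8 was at 0, the lowest signal being 9.5. Mbp and Pmp22, whose groups overlapped, made up most of each sum. S100b read 197 and 158 in the NTG and 253 and 357 in the MCK-PPARa arrays. Snap25 read 54.6 and 9.5 in the NTG and 111 and 70.1 in the MCK-PPARa arrays. Both genes were too dim to be tested, and both were higher on both transgenic arrays. The groups of Sox10, L1cam, Nefl and Nefm overlapped. The 5 satellite cell markers summed to 5575 and 5759 in the NTG and 6994 and 7267 in the MCK-PPARa arrays, a gap made mainly by the integrin gene Itga7 (0.59 ± 0.28, SE), while Pax7, the defining marker, overlapped (-0.05 ± 0.41, SE). The 5 adipocyte markers on the array, out of 7, summed to 6856 and 6893 in the NTG and 27788 and 16991 in the MCK-PPARa arrays. Fabp4, a fatty acid binding protein gene, alone read 4185.9 and 3820.5 in the NTG and 21784 and 10839 in the MCK-PPARa arrays. Adipoq, the adiponectin gene, and Retn were also higher on both transgenic arrays, while the groups of Lep and Cidec overlapped. None of the 3 tested passed in limma with all 4 arrays and no replicate block. With the block Fabp4 (1.93 ± 0.38, SE) had a limma adjusted p of 0.0043 and Adipoq (1.34 ± 0.31, SE) one of 0.023. The 6 endothelial markers, all on the array, summed to 9968 and 11420 in the NTG and 14155 and 14652 in the MCK-PPARa arrays. Kdr, a VEGF receptor gene, had the largest difference of them, 0.91 ± 0.32 (SE, limma adjusted p = 0.68). Pecam1 (0.35) and Cdh5 (0.46) were also higher on both transgenic arrays, while the groups of Tek (0.18), Vwf (0.07) and Emcn (-0.08) overlapped. The 6 macrophage markers, also all on the array, summed to 8263 and 8980 in the NTG and 10335 and 11284 in the MCK-PPARa arrays. Csf1r (0.28 ± 0.29, SE) made up the larger part of each sum. Csf1r, Adgre1, Lyz2 and the dim Itgam were higher on both transgenic arrays, while the groups of Cd68 and Cd14 overlapped. The summed signals were thus higher on both transgenic arrays for satellite cells, adipocytes, endothelial cells and macrophages, and those of fibroblast and smooth muscle markers overlapped. The part of any of these cell types, nerve and Schwann cells included, in the values of Chrna2, Chrna1, Chrng and Ncam1 was not tested.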

How the data were processed

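The authors deposited 1 table of linear signal intensity per probe set, made with MAS5 per the submitters' processing notes. The sources used here give no version, scaling target or detection calls. The 2% trimmed mean intensity of the deposited values was 1500.6 to 1500.7 on every array and the median 581.5 to 700.3, so no further normalization was applied. The number of arrays limits the precision.

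Gene names come from the platform annotation, and 20380 of 22690 had 1 gene symbol. Probe sets below the 40th percentile of mean log2(signal + 64.2) were left out, and the brightest stood for each gene. MCK-PPARa and NTG were compared with limma 3.58.1 in R 4.3.3 (lmFit, eBayes with a variance trend, two-sided, Benjamini-Hochberg over 8400 genes). The fit was tested on simulated data.

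Members and gene lists were chosen with earlier results of these data known. Named genes were all members, up to 4 genes per list by smallest p, neighbours in gene order and the 5 nearest patterns to Chrna2. Ankrd1, listed genes too dim to be tested and cell type markers were also named, outside this rule. Alternatives were other offsets, filters, scalings, no trend, a replicate block and single arrays left out.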

Additional observations from a re-analysis of the deposited data

How the results depend on the processing

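The count of 5 genes past a limma adjusted p of 0.05 became 3 under median centring, which shifted all differences by -0.10 on the log2 scale, and 2 with the filter at the 60th percentile. It was 196 with the replicate number as a block, and between 68 and 150 with 1 array left out. No listed pathway gene passed with all arrays and no block, 1 did with it (Cdkn1a), and 1 to 2 did with 1 array left out. Of the 7 members tested, 2 (Chrna1 and Chrna2) passed with the block, where 196 of all 8400 genes passed. Without the variance trend 1 (Chrna2) passed, where 5 of all 8400 genes passed. Because the members were chosen with this comparison known, nothing is read from whether they passed. With 1 array left out the lone array of a group is assumed to vary like the others. Each of the 4 arrays, when left out, raised the counts of all genes and of listed pathway genes. The cause of these changes was not tested. The replicate numbers are not said to pair the samples. Deviations from the group means correlated at 0.46 across genes between same-numbered arrays, and genes are not independent replicates. Ephx2 had a limma adjusted p of 0.00063 with the replicate block. The block leaves every member's difference as it is.

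Of 144 values of the 16 member probe sets under other settings, 133 moved by less than 1 SD. The 144 include those with the replicate block, which could not move. The difference of Chrna2 was 4.14 with an offset of 1% of the median and 2.23 with 50%, since its NTG signals are near the offset. That of Chrna1 lay between 1.71 and 2.64 with 1 array left out, and that of Rapsn between -0.77 and -0.32. With 1 array left out, Chrnb1, Chrnd, Musk, 2 Chrng probe sets and the Ncam1 probe set 1421966_at took either sign. Signal near background limits what can be said of Chrnd, Chrng and most Ncam1 probe sets.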
